A study of Mus musculus with 6 samples.

Results

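The genes described here mark the primed and formative epiblast, the states that mouse embryonic stem (ES) cells enter as they leave naive pluripotency. There were 9 genes on the list: Fgf5, Pou3f1, Otx2, Sox3, Zic2, Foxd3, Sox4, Sall2 and Etv1. A gene was measured where the platform annotation gave it at least 1 probe set, a group of short array probes read as 1 value, that named no other gene. This held for 8 of the 9 genes, among 18193 genes so represented on the array, and gave 18 probe sets. Etv1 was not measured under this rule, since all 3 probe sets that name it also name a second gene. Transcripts were measured as total RNA on Affymetrix arrays in 2 undifferentiated mouse ES cell lines. The heterozygous group was 3 arrays of line D4 (Dicer +/-), with 1 working copy of Dicer, and the null group was 3 arrays of line 27H (Dicer -/-), with none. Dicer is the ribonuclease that makes mature microRNAs from their precursors, and the comparison asks how transcript levels differ without it. Each genotype was represented by a single line, and an effect of the line cannot be told apart from one of the genotype. Separate cultures for the arrays of a line are not named in the labels, so p-values here rest on array-to-array spread alone, which may be technical. The strain, the culture medium and the deleted part of the gene are not given in the sources used here.

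As background, naive ES cells resemble the epiblast of the preimplantation embryo, and primed cells resemble the epiblast after implantation. The formative state lies between them and is the one in which cells become competent to form the germ layers. During this transition FGF4 acts through ERK signalling, Otx2 and Pou3f1 are induced early, Fgf5 rises strongly, and the naive transcription factors decline. Several of the genes, among them Sox3, Sox4, Zic2 and Pou3f1, are also used later in the nervous system.

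Values are intensities in arbitrary units on a linear scale, and differences are null minus heterozygous on the log2 scale. Arrays differed little in overall level, with medians of 44.9 to 52.7 over all probe sets. Across tested genes, which are not independent replicates, Pearson correlations were 0.967 to 0.973 between arrays of 1 line and 0.924 to 0.928 between arrays of different lines. Both Dicer1 probe sets were read at like levels in the lines, with log2 differences of 0.12 and -0.01. The labels do not place the deletion, so these probe sets do not check the genotype. The ES cell label was checked with 9 markers, all of them above the filter on low values. Pou5f1 (Oct4), Sox2 and Nanog, core factors of pluripotency, had log2 differences of -0.13, 0.13 and 0.08, and the sign for Pou5f1 turned to 0.03 after median centring of the arrays. The list of genes shared by naive and primed cells, which holds Pou5f1 and Sox2, had 8 tested genes. Of these, 1 (12.5%) was called lower and 0 higher, against 6.06% and 7.10% of all genes tested. At limma's adjusted p alone 5 were lower and 1 higher, against 23.1% and 23.2% of all genes. The counts of the list were the same at an unadjusted p under 0.05, and its median was -0.23. The called gene was Lin28a, an inhibitor of let-7 processing, which fell from 5094 ± 292 to 864 ± 86.5 (SD, n = 3), 5.91-fold lower (limma adjusted p 5.89e-08).

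The listed genes differed in size and direction of change. Fgf5, Pou3f1, Sox3 and Sall2 fell in null cells, Sox4 was lower by slightly less than the threshold of size with its brightest probe set, and Otx2, Zic2 and Foxd3 were at or slightly above their heterozygous level. A gene was called where limma's adjusted p, by the Benjamini-Hochberg method over all 26545 probe sets tested, was under 0.05 and the log2 difference was at least 1 in size, a 2-fold change. Each gene was read by its brightest tested probe set, and a probe set was tested if at least 3 arrays read 32 or more. All 8 measured genes had such a probe set. By this rule 4 of the 8 were called lower, against 6.06% of the 12927 genes tested, and 0 were called higher, against 7.10%. At limma's adjusted p alone 5 were lower and 1 was higher, against 23.1% and 23.2% of all genes, and the counts were the same at an unadjusted p under 0.05. The median log2 difference of the 8 genes was -1.02, beside -0.01 over all genes tested. The genes were chosen with earlier results of these data known, so these comparisons are a description and not a test. Since RNA was taken from bulk cultures, fewer cells with a transcript and less of it per cell cannot be told apart.

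**Figure D1:**
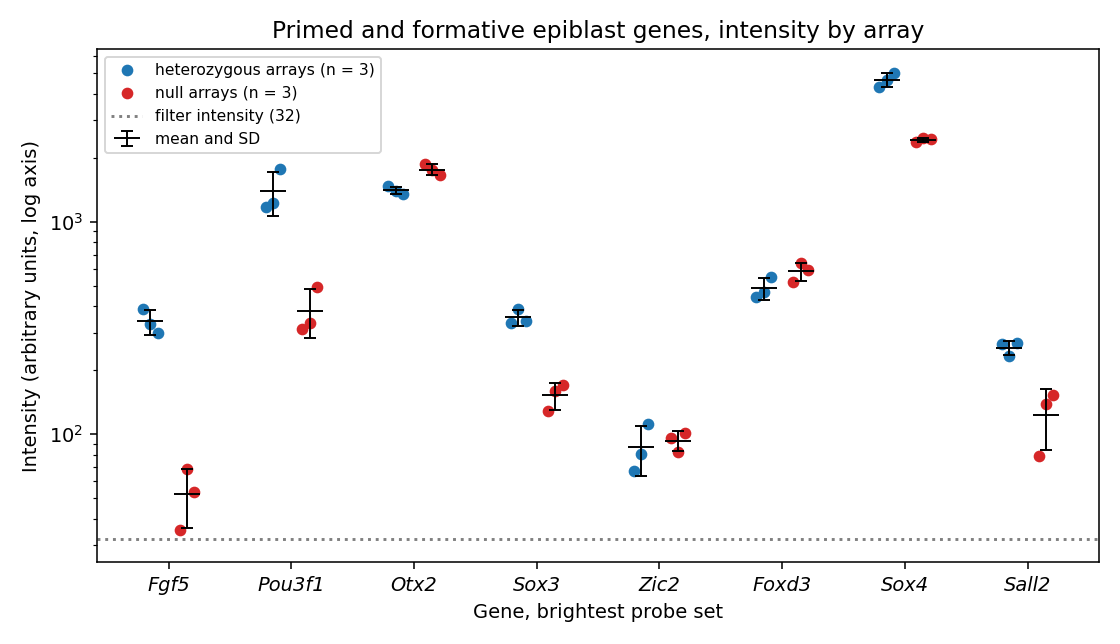
Intensity on a log axis for the brightest probe set of each measured gene, with 1 point per array, 3 heterozygous arrays in blue and 3 null arrays in red, and bars for the mean and SD. The arrays of the lines are apart for Fgf5, Pou3f1, Sox3, Sox4 and Sall2, with null cells lower, and for Otx2, with null cells higher; they overlap for Zic2 and Foxd3. The dotted line marks the filter intensity of 32.

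**Figure D2:**
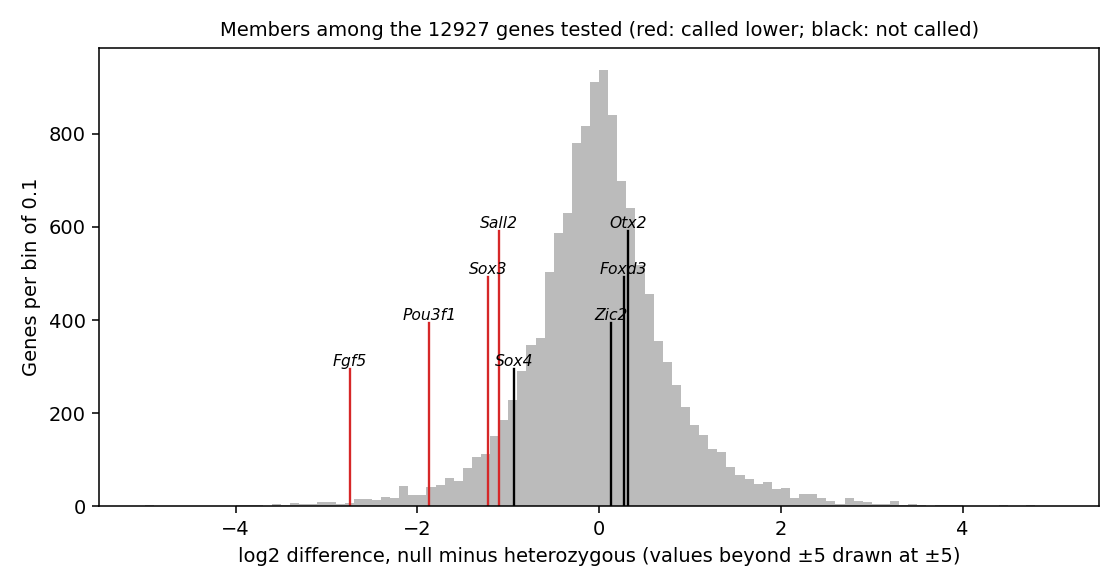
Histogram of the log2 difference, null minus heterozygous, of the 12927 genes tested, in bins of 0.1, with a vertical line for each measured gene of the list (its height has no meaning). Fgf5 at -2.74 and Pou3f1 at -1.87 lie in the lower tail, and Zic2, Foxd3 and Otx2 lie near the middle.

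Fgf5, the secreted growth factor used as the classical marker of primed epiblast, showed the largest difference of the list. Its brighter probe set, 1438883_at, read 387, 331 and 299 in the heterozygous arrays and 35.4, 68.1 and 53.3 in the null arrays. Every null array was below every heterozygous array, and all 6 were above the filter intensity. The means were 339 ± 45.0 and 52.3 ± 16.4 (SD, n = 3), so that Fgf5 was 6.68-fold lower in null cells (log2 difference -2.74 ± 0.25 SE, limma adjusted p 1.65e-05). Of the genes tested, 0.518% had a lower log2 difference. The second probe set, 1426186_a_at, read 123, 104 and 76.1 in heterozygous arrays and 12.1, 5.07 and 26.9 in null arrays. It was called too, at -3.07 ± 0.65 (adjusted p 0.00362), but all its null values were under 32, and with such values raised to 32 the fold was 3.09. This probe set passed the filter only through its heterozygous arrays.

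Among the transcription factors, Pou3f1 fell with both of its probe sets. Pou3f1 (Oct6) is a POU domain factor induced early as ES cells leave the naive state. Probe set 1460038_at read 1170, 1230 and 1768 in heterozygous arrays and 314, 334 and 495 in null arrays, a log2 difference of -1.87 ± 0.19 (SE) and 3.66-fold lower (limma adjusted p 3.40e-05). The highest array of each line was replicate 3, and the groups did not overlap. Probe set 1422068_at read 1270, 1222 and 1072 against 244, 243 and 274. Its spread was narrower, and its log2 difference was -2.23 ± 0.11, 4.68-fold lower (adjusted p 3.31e-07).

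Sox3, an X-linked factor of the SOXB1 group that overlaps in function with Sox2, was lower by a factor near the threshold of size. Probe set 1435192_at read 332, 390 and 339 in heterozygous arrays and 128, 159 and 170 in null arrays, with no overlap. The means were 354 ± 31.5 and 152 ± 21.6 (SD, n = 3), a fold of 2.34 (log2 difference -1.22 ± 0.16 SE, limma adjusted p 1.42e-04). The dimmer probe set, 1450485_at, read 80.2, 106 and 80.5 against 31.2, 78.6 and 20.1, and its null replicate 2 lay just under the heterozygous arrays. Its log2 difference was -1.27 ± 0.48, and it missed the threshold at an adjusted p of 0.0590. It was called with values under 32 raised to 32 (adjusted p 0.0391) and without null replicate 2 (-1.81, adjusted p 0.00801).

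Sox4, a factor of the SOXC group with roles in neural and epithelial progenitors, was lower by unequal amounts across its probe sets. In 5 of its 6 tested probe sets every null array was below every heterozygous array, which was so for 27.7% of all tested probe sets. The brightest, 1433575_at, read 4306, 4665 and 5026 in heterozygous arrays and 2376, 2472 and 2450 in null arrays. The groups were far apart relative to their spread, and the fold was 1.91 (log2 difference -0.94, 95% confidence interval -1.10 to -0.77, limma adjusted p 5.74e-06), just short of the threshold of size. Of the 8 Sox4 probe sets, 6 were tested, and 4 of these were called lower, against 6.32% of all tested probe sets. The 4 were 1419155_a_at, 1419156_at, 1419157_at and 1449370_at, at -1.79, -1.70, -1.59 and -2.09. The last of them read 179, 152 and 177 in heterozygous arrays and 34.0, 45.2 and 41.2 in null arrays. These 4 were designed from 1 source transcript record and are not independent of each other. Their 95% intervals, which reach up to -1.26 for 1419156_at, did not overlap that of the brightest probe set, although the difference between probe sets was not tested. The mean over the passing Sox4 probe sets was -1.57 and was called (adjusted p 3.62e-05), so the call of the gene rests on how its probe sets are combined. The sixth, 1455867_at, read 29.9, 62.6 and 54.7 against 9.42, 9.04 and 81.2, with overlapping groups, and the other 2 were under 32 in every array.

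Sall2, a zinc finger factor of the spalt family, read 264, 233 and 268 in heterozygous arrays and 79.0, 138 and 153 in null arrays. All null arrays were lower, and null replicate 1 was the lowest of them. The means were 255 ± 19.1 and 123 ± 39.2 (SD, n = 3), a fold of 2.14 (log2 difference -1.10 ± 0.24 SE, limma adjusted p 0.00422). The call lay close to the threshold of size: it was lost when null replicate 1 was left out (-0.81), after median centring of the arrays (-0.95) and narrowly when 16 was added to each intensity (adjusted p 0.00319).

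Otx2, the homeobox factor that drives exit from the naive state, did not follow Fgf5 and Pou3f1. Its single probe set read 1469, 1398 and 1353 in heterozygous arrays and 1870, 1747 and 1664 in null arrays, so that every null array was higher. The difference was small, a fold of 1.25 with a log2 difference of 0.32 (95% interval 0.15 to 0.50, limma adjusted p 0.00822), and short of the threshold of size. Foxd3, a forkhead factor of ES cells, epiblast and neural crest, read 440, 464 and 550 against 521, 638 and 589, with overlapping groups. Its log2 difference was 0.27 (95% interval -0.01 to 0.54, adjusted p 0.111). Zic2, a zinc finger factor that binds enhancers in ES cells, read 67.3, 80.5 and 112 against 96.2, 82.4 and 101. The interval of its log2 difference ran from -0.45 to 0.72 around 0.13 (adjusted p 0.724), so it reaches up to 1.65-fold higher. Its sign was not settled, since it was -0.03 without heterozygous replicate 1.

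Over all 18 probe sets of the list, 16 were tested. Of these, 10 were called lower, against 6.32% of all tested probe sets. In 12 every null array was below every heterozygous array, which was so for 27.7% of all tested probe sets. In 1 they were all above, a pattern whose share over all tested probe sets was not computed, and 3 overlapped. Probe sets of 1 gene share their target, so these counts are not counts of independent measurements. Both lower counts include the second Fgf5 probe set, 1426186_a_at. It passed the filter only through its heterozygous arrays, so its direction adds no support.

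**Figure D3:**
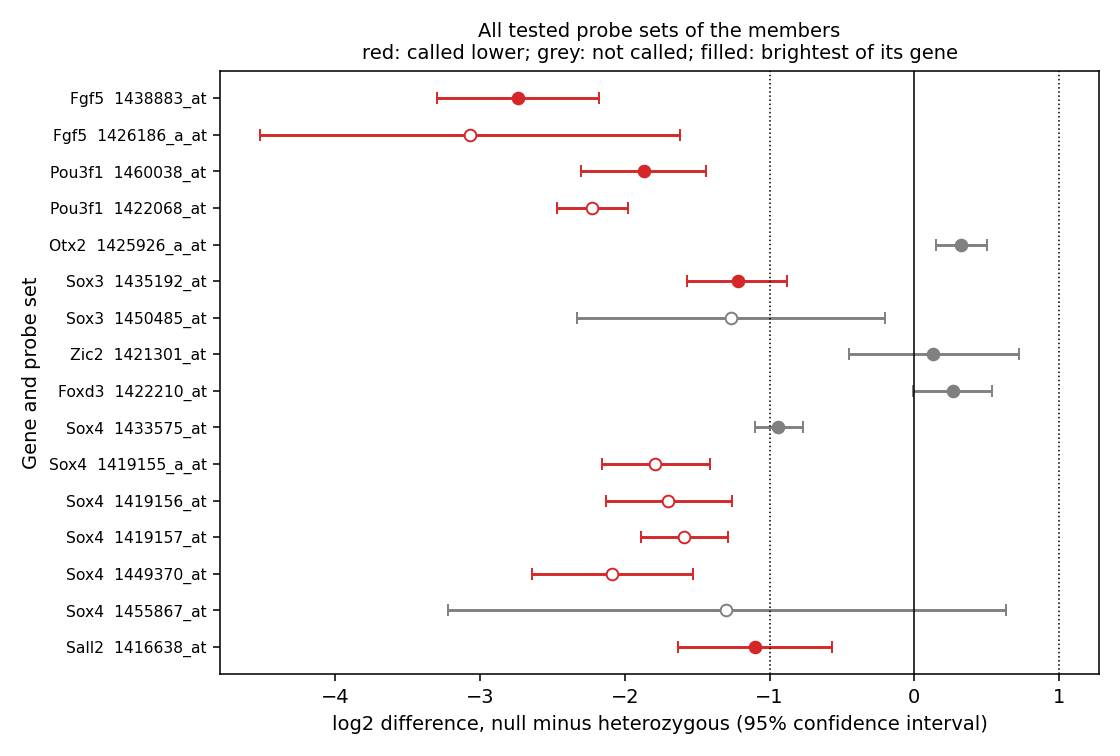
Log2 difference, null minus heterozygous, with 95% confidence intervals for the 16 tested probe sets, in red where called lower and grey where not called; filled points mark the brightest probe set of each gene, and dotted lines the threshold of 1 in either direction. Fgf5 and Pou3f1 lie below -1 with both of their probe sets, while the brightest Sox4 probe set lies at -0.94 and 4 dimmer ones between -2.09 and -1.59.

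Promoter sequence from RefSeq (build GRCm38.p6), 250 bases before to 50 after a start, matched 6 of the 9 listed genes: Fgf5, Otx2, Foxd3, Sox4, Sall2 and Etv1. The sequences shown are those of Fgf5 and Sall2, which were called lower, and of Sox4, with Foxd3 as a gene that was not called. They lie at chr5:98253934-98254233 (Fgf5, + strand), chr13:28953650-28953949 (Sox4, - strand), chr14:52316274-52316573 and chr14:52328621-52328920 (Sall2 starts A and B, - strand) and chr4:99656049-99656348 (Foxd3, + strand). Capitals mark matches on either strand to the octamer bound by POU factors (ATGCAAAT), an OTX motif (TAATCC), a SOX motif (ACAAAG), the CCAAT box (CCAAT) and the TATA box (TATAAA).
Fgf5: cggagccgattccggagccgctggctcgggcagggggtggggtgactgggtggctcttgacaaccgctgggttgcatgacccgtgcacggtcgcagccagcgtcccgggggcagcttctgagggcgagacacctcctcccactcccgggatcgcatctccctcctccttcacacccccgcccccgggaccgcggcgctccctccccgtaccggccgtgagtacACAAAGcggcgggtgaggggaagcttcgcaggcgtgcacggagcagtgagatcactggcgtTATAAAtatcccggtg
Sox4: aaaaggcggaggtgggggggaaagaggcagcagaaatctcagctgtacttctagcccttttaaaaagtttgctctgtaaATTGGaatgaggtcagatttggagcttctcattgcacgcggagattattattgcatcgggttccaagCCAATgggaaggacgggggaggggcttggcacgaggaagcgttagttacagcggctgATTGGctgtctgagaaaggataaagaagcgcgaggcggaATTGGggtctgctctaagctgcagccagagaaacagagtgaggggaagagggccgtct
Sall2 start A: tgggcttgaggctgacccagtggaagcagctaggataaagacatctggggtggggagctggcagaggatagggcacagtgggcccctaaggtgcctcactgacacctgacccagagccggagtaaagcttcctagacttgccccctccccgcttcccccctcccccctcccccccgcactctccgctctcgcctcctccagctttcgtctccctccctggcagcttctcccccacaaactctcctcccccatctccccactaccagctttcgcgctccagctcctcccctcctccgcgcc
Sall2 start B: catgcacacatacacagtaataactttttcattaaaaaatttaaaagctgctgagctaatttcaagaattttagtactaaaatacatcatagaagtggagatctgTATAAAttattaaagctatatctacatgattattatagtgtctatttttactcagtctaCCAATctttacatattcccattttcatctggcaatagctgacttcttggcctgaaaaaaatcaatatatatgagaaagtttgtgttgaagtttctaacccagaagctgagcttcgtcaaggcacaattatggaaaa
Foxd3: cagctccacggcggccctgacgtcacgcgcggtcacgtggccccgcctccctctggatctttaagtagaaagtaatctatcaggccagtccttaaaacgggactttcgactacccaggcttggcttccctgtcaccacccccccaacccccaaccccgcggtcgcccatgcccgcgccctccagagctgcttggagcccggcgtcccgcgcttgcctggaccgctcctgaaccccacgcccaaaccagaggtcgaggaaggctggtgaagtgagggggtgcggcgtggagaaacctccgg

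These promoters were unlike each other in base composition and in motifs. The Fgf5 promoter held 29 CpG dinucleotides, more than 87.1% of the 32851 promoters in the table, and Foxd3 held 25, more than 81.6%. Sox4 held 12, and the Sall2 starts held 10 and 1, beside a median of 7 over all promoters. Fgf5 had a SOX and a TATA match, which are found in 18.7% and 13.6% of all promoters of this length. Sox4 had 4 CCAAT matches, where 37.4% of promoters have at least 1, and Sall2 start B had a CCAAT and a TATA match. The TATA match of Fgf5 lies after the start, and that of Sall2 start B lies well before it. Over all 11 promoters of the 6 matched genes, 4 held the TATA motif, 3 the CCAAT box and 1 the SOX motif. The octamer, present in 1.74% of all promoters, was found in 0. The OTX motif, present in 7.06% of all promoters, was found in 1 of the 11, a promoter of Otx2 itself at chr14:48665060-48665359 (- strand) that is not shown. A match is a description of the letters and not evidence of binding.

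A list of 28 paralogues had 26 with a probe set of their own and 18 that passed the filter. Of the 18, 3 (16.7%) were called lower, beside 6.06% of all genes tested, and 0 were called higher, beside 7.10%. At limma's adjusted p alone 4 passed as lower and 6 as higher, beside 23.1% and 23.2% of all genes. The counts of the list were the same at an unadjusted p under 0.05. The median log2 difference of the 18 was 0.13. The 3 were the ligands Fgf15 and Fgf17 and the ETS factor Etv4, a relative of Etv1 that is induced by FGF signalling. Fgf15 read 807, 816 and 686 in heterozygous arrays and 194, 173 and 153 in null arrays, 4.45-fold lower (adjusted p 1.23e-06). Etv4 read 722, 744 and 712 against 296, 230 and 195, 3.06-fold lower, and Fgf17 was 2.07-fold lower. Fgf17 lost its call with arrays centred on their medians, at -0.90, and as the mean over its probe sets. Its 2 tested probe sets were at -1.05 and -0.79, and only the first was called.

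Within single families the values ran in different directions. Fgf4, an ES cell ligand of the same FGF subfamily as Fgf5, had a log2 difference of 0.52 beside -2.74 for Fgf5. In the SOXB1 group Sox2 was at 0.13 and the dim Sox1 at 0.90, beside -1.22 for Sox3. Sox1 was called higher with arrays centred on their medians (1.06), with quantile normalization (1.01) and without null replicate 2 (1.06). Sox11, of the same group as Sox4, was at 0.52 with its brightest probe set, but its 6 tested probe sets spanned -1.02 to 0.52. Sall1, Sall3 and Sall4 were at 0.59, 0.94 and -0.26, beside -1.10 for Sall2. Sall3 was called higher after median centring (1.10), without heterozygous replicate 1 (1.01), without heterozygous replicate 2 (1.05) and without null replicate 1 (1.12). Zic5, a neighbour of Zic2 in the genome, was at 0.63, with its 3 probe sets between -0.12 and 0.71. Etv5 was at 0.08.

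Genes around FGF signalling, which acts in the exit from naive pluripotency, were lower on balance. Of 19 tested receptors, pathway components and ERK feedback genes, 5 (26.3%) were called lower and 0 higher, against 6.06% and 7.10% of all genes tested. At limma's adjusted p alone, 10 passed as lower and 3 as higher, against 23.1% and 23.2% of all genes. At an unadjusted p under 0.05 12 were lower and 3 higher. The list's median was -0.70, or -0.54 with arrays centred on their medians. Dusp4, a phosphatase that inactivates ERK, fell from 748 ± 60.6 to 82.4 ± 30.3 (SD, n = 3), 9.57-fold lower. Null replicate 2 was the lowest, at 47.5, and the groups were far apart. Spry1 and Spry4, feedback inhibitors of receptor tyrosine kinase signalling, fell 4.33-fold and 2.94-fold, and Egr1, an immediate early transcription factor, fell 3.32-fold. Not all feedback genes were lower: Spred2 and Spred1, inhibitors of RAF activation, had log2 differences of 0.52 and 0.34. Levels of phosphorylated ERK were not measured.

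Other markers of the formative and primed states were split. Of 26 tested genes, 6 (23.1%) were called lower and 1 (3.85%) higher, against 6.06% and 7.10% of all genes tested. At limma's adjusted p alone, 15 passed as lower and 7 as higher, against 23.1% and 23.2% of all genes. The median was -0.25. The kinase Pim2 fell from 2705 ± 394 to 590 ± 9.92 (SD, n = 3), 4.55-fold lower. Follistatin (Fst), which binds activin, fell 3.79-fold and the Wnt effector Lef1 3.73-fold; the second Lef1 probe set was at -0.64. The de novo methyltransferase Dnmt3a was 3.31-fold lower with its brightest probe set, but its 5 probe sets spanned -1.73 to 0.81 and their mean, -0.75, was not called. Zeb1, a repressor of E-cadherin, was called higher, at 1.03. Tcf15, a factor of the early formative state, was at -0.82, Nodal, a ligand that sustains the primed state, at -0.48, and Cdh2 (N-cadherin) at 0.93, each short of the threshold of size. After median centring of the arrays, 3 genes of this list were called higher and 6 lower.

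Few naive pluripotency genes were called, in shares near those of all genes tested. Of 21 tested, 2 (9.52%) were called higher and 1 (4.76%) lower, against 7.10% and 6.06% of all genes. The median of the list was -0.07. Pecam1, an adhesion molecule of naive ES cells, rose from 454 ± 71.2 to 1864 ± 131 (SD, n = 3), 4.13-fold, and the repressor Prdm14 rose 2.96-fold. Dppa3 (Stella) fell 2.89-fold. Klf2, a naive factor, read 7830 ± 313 and 13604 ± 492, a fold of 1.74 short of the threshold. Klf4, Esrrb and Zfp42 (Rex1) were at -0.30, -0.17 and -0.07, with limma adjusted p values of 0.0590, 0.108 and 0.489.

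**Figure D4:**
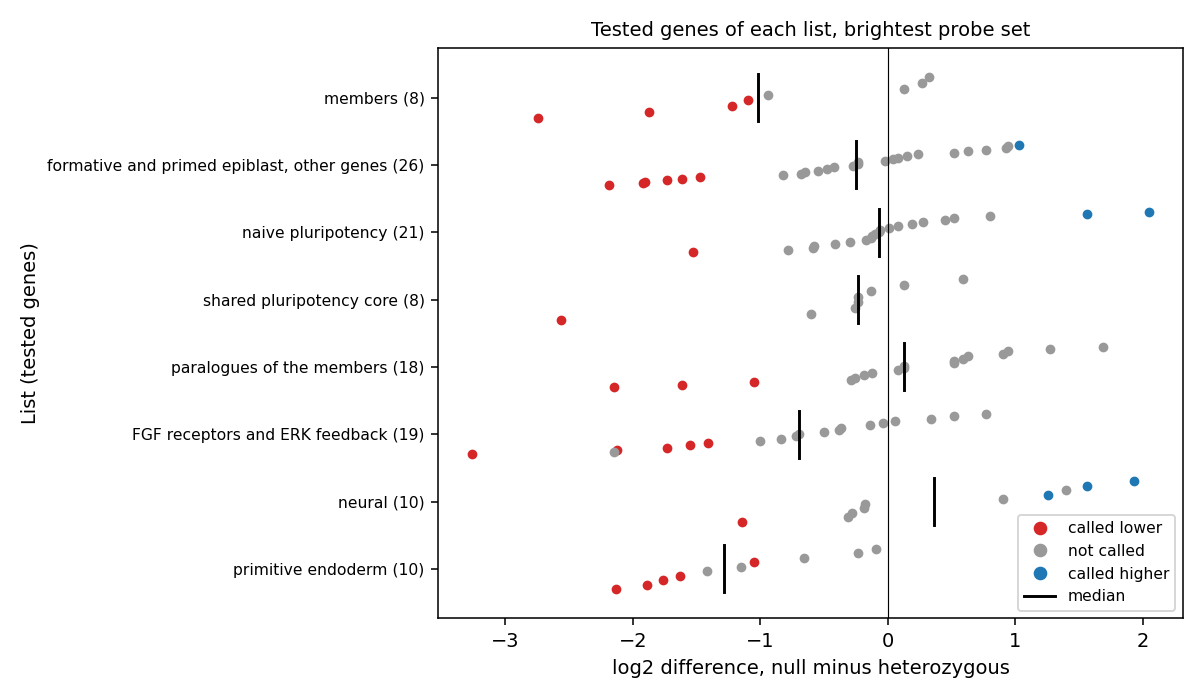
Log2 difference, null minus heterozygous, of the tested genes of each list, with 1 point per gene from its brightest probe set and a black bar at the list's median. Points are red where called lower, blue where called higher and grey where not called; the genes of the list described here and the FGF and ERK list lie mostly to the left, and naive genes lie on both sides of 0.

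Markers of other cell types were also read, since some of the listed genes are expressed in neural cells as well. Of 10 tested neural markers, 3 were called higher, Pax6, Map2 and Ncam1, and 1 lower, Elavl3. For Elavl3 (log2 difference -1.14), 9 of 20 alternatives ended the call, among them leaving out heterozygous replicate 1 (-0.92), heterozygous replicate 2 (-1.21, limma adjusted p 0.0644) or null replicate 3 (-0.82). Ncam1 was at 0.91 as the mean over its probe sets and at 0.86 without probe sets that share sequence, and was called in neither. The summed intensity of the 14 neural markers with a probe set was 1555 to 1863 in heterozygous and 2253 to 2461 in null arrays. Of these markers, Dcx, Neurog1, Neurog2 and Olig2 did not pass the filter. The called Pax6 (1.93), Map2 (1.56) and Ncam1 (1.26) made up most of the rise of the sum. The brightest marker, Tubb3, had means of 749 in heterozygous and 662 in null arrays. Tubb3 (-0.18), Nes (-0.31), Hes5 (-0.28) and Zic1 (-0.19) were not called, and their arrays overlapped. Sox1 (0.90) was higher in every null array but not called. Pax3 (1.40) was not called and passed the filter only through its null arrays. The sum therefore says little about the other markers. Of 10 tested primitive endoderm markers, 5 were called lower, led by the adaptor Dab2 (-2.13), the receptor Cubn (-1.89), the laminin chain Lama1 (-1.76) and the factor Gata6 (-1.63, or -1.50 and limma adjusted p 0.0518 without heterozygous replicate 3). Over all genes tested, 6.06% were called lower. Gata4 (-0.09), Pdgfra (-0.23), Sox7 (-0.66), Hnf4a (-1.15) and Sox17 (-1.42) were not called. Their arrays overlapped, and none had a group mean above 80.0. The summed intensity of all 12 was 3682 to 4467 in heterozygous and 1486 to 1695 in null arrays. Its largest parts were Col4a1, Lama1 and Dab2, with means of 1587, 1007 and 683 in heterozygous and 768, 296 and 155 in null arrays. The fall of the sum therefore says little about the dim markers. Single calls stood in the remaining lists: Ets1 fell by 2.55 on the log2 scale (neural crest) and Evx1 was higher by 1.33 (mesoderm). At limma's adjusted p alone, 2 of the 6 tested mesoderm markers were lower, Mixl1 (-0.98) and Eomes (-0.58), and 1 was higher. Over all genes these shares were 23.1% and 23.2%. In trophectoderm Cdx2 was lower at -3.37 and Tead4 was higher at 1.39. All null values of Cdx2 were under 32. It passed the filter only through its heterozygous arrays, so its direction adds no support. The call of Cdx2 was lost without an intensity trend (limma adjusted p 0.0532), and that of Tead4 without probe sets that share sequence (0.29) and as a mean over probe sets (0.84). The bright trophectoderm marker Krt8 fell from 4700 ± 35.8 to 2705 ± 36.0 (SD, n = 3), short of the threshold of size at -0.80. For these lists, the summed intensities were 834 to 918 and 915 to 1053 (neural crest, 7 genes), 580 to 695 and 504 to 703 (primitive streak and mesoderm, 9 genes), 6249 to 6904 and 4368 to 5021 (trophectoderm, 8 genes) and 505 to 534 and 558 to 639 (feeder fibroblasts, 9 genes). Krt8 made up most of the trophectoderm sum, and the direction of the feeder sum rests on 1 gene. Dcn, a matrix proteoglycan, rose from 31.0 ± 23.8 to 263 ± 56.6 (SD, n = 3). The collagen chain Col1a1 fell from 70.0 ± 28.0 to 6.62 ± 1.91 (SD, n = 3). Col1a1 passed the filter only through its heterozygous arrays, so its direction adds no support. The median log2 difference of the 7 tested genes was -0.79. Without Dcn, a choice made after its values were seen, the sum over 8 genes was 447 to 515 in heterozygous and 293 to 355 in null arrays, so its direction turned. The part of other cells in the differences of the list was not tested.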

How the data were processed

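The deposited file holds linear intensities, as its values show, 1 per array for each of 45101 probe sets; the authors scaled each array to the same mean, 500, after trimming 2% at each end. GCRMA is the only tool in the submitters' processing notes, and the step it was used in is not given in the sources used here. No detection calls were used. The number of arrays limits the precision.

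Arrays were grouped by their titles. The 64 control probe sets were left out, log2 was taken, and a probe set was tested where at least 3 of 6 arrays reached a log2 of 5 (intensity 32). The fit used limma 3.58.1 in R 4.3.3 (lmFit, eBayes with an intensity trend) with no covariate beside group, two-sided tests and Benjamini-Hochberg adjustment over 26545 probe sets. The fit was tested on simulated data. Probe sets naming 1 gene numbered 34945, several 932 and none 9160. Gene names are those of the platform annotation.

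The genes and lists were chosen with earlier results of these data known. All listed genes, Dicer1, Pou5f1, Sox2 and Nanog, some measured paralogues, and up to 4 called genes per list and direction are named by a fixed rule. Spred1, Spred2, Tcf15, Nodal, Cdh2, Klf2, Klf4, Esrrb and Zfp42 were added as examples after their values were seen, as were the marker genes under the filter. So were the called marker Col4a1 and the markers Krt8, Gata4, Sox17, Sox7, Pdgfra and Hnf4a, which were not called. The uncalled markers Nes, Tubb3, Hes5, Zic1, Pax3, Mixl1 and Eomes were added in the same way. Alternatives covered filters, log scales, normalization, variance priors, a replicate block, array weights, the combination of probe sets, thresholds and leaving out each array.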

Additional observations from a re-analysis of the deposited data

How the results depend on the processing

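The count of listed genes called lower was 4 and lay between 3 and 5 over 21 alternatives, and between 3 and 4 when 1 array was left out. Fgf5, Pou3f1 and Sox3 kept their direction and their call in all 21, with log2 differences of -2.96 to -2.40, -2.08 to -1.69 and -1.31 to -1.07. With a difference of any size, 1 listed gene, Otx2, was called higher, Sox4 was called lower at -0.94, and the formative and primed list and the naive list had 22 and 12 calls in place of 7 and 3. Zic2 turned to -0.03 without heterozygous replicate 1 and was at most 0.34 when other arrays were left out. Called probe sets of the listed genes numbered 8 to 12, beside 10. Leaving out 1 array gave 7 to 9 calls of the formative and primed list and 3 calls of the naive list each time. Centring arrays on their medians moved the median over all genes from -0.01 to 0.14 and the share of calls that were higher from 53.9% to 69.4% (549 genes lower and 1245 higher, against 784 and 918). The causes were not tested. The replicate block left 4 listed genes called lower and 0 higher, and the second Sox3 probe set was called with it (limma adjusted p 0.0277). Equal replicate numbers did not pair the arrays, since the deviations of same-numbered arrays correlated at 0.033, 0.028 and 0.076. Low intensity limits the second probe sets of Fgf5 and Sox3, whose null values fall below 32 in all or some arrays.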

Other observations

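The probe sets that name Etv1 together with Gm5454 were left out of the list, and their values cannot be assigned to either gene. Probe set 1450684_at read 303, 384 and 427 in heterozygous arrays and 640, 701 and 823 in null arrays. Every null array was higher, at a log2 difference of 0.96 (95% interval 0.64 to 1.29, limma adjusted p 4.54e-04), just short of the threshold of size. Probe set 1422607_at read 1116, 985 and 1063 against 1304, 1346 and 1323, a log2 difference of 0.33 (adjusted p 0.00868), and the third was under 32 in every array.

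The genes whose log2 values followed Fgf5 most closely over the 6 arrays were Sp5, a target of Wnt signalling, Srsf10, a splicing regulator, and Setd5, with Pearson correlations of 0.9988, 0.9980 and 0.9975. Sp5 and Setd5 had log2 differences of -1.36 and -1.07, and Srsf10 one of -0.37. For Otx2 they were Fads2, a fatty acid desaturase, Trappc10 and Pex7, at 0.9986, 0.9983 and 0.9969. The arrays form 2 groups, so any gene that differs between the lines correlates with Fgf5 or Otx2, and 1045 and 732 genes did so at over 0.95; these correlations are a description only.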
